A study of Caenorhabditis elegans with 4 samples.

Results

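The regions described here are 4163 peaks of LSY-2 ChIP, weak by their median score, from the Caenorhabditis elegans embryo that were found at close positions in both ChIP samples and were left out of the authors' combined peak list. They were chosen by 2 measured properties, position and absence from the combined list. A nuclear peak of replicate 1 was taken if its midpoint lay within 100 bp of the midpoint of a replicate 2 peak and if it overlapped no combined peak by 1 bp or more. They make up 13.9% of the 29973 nuclear peaks of replicate 1. The combined list itself has 3669 peaks.

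The protein LSY-2 binds DNA through zinc fingers. It is best known in this nematode for left-right asymmetry of the ASE pair of taste neurons, where it is needed for the fate of the left cell. In chromatin immunoprecipitation with sequencing, DNA held by a tagged protein is enriched and a peak caller reports where reads pile up. IDR, the procedure named in the files, compares ranked peak lists of replicates and separates peaks that recur at like ranks from those that do not. It is generally run on long lists whose lower ranks can hold background, and recurrence far down such lists is the subject here.

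All samples came from embryos of strain OP367, grown at 20 °C in a population of males and hermaphrodites. The strain carries the allele unc-119(ed3) and the transgene wgIs367, which holds lsy-2::TY1 EGFP FLAG together with a copy of unc-119. The tagged protein is thus made from a transgene introduced by bombardment, in 1 strain, and whole embryos mix many cell types. The 2 ChIP samples were precipitated with anti-GFP antibodies from chromatin fixed in 2% formaldehyde, and the 2 input samples are total chromatin DNA of the same strain. No values of the inputs and no strain without the tag were analysed here, so enrichment over input could not be given, and no label tells whether replicates 1 and 2 were grown as separate cultures. The peak lists give position and score in genome build WS220. Read depth is unknown, and no gene or sequence was assigned, since no annotation or genome of that build was used.

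Close matching was common at combined peaks and much rarer elsewhere. Of the nuclear peaks of replicate 1, 25.4% had a replicate 2 midpoint within 100 bp. The share was 81.4% among the 4236 that overlapped a combined peak, 3448 in number. Among the 25737 that did not, it was 16.2%, and these are the 4163 regions. Since recurrence between replicates bears on what IDR keeps, the gap between these shares may follow from how the combined list was made. Read from the other side, 4165 replicate 2 peaks, or 16.1% of the 25849 outside the combined list, had a replicate 1 midpoint as close. The 4163 regions had 4163 distinct partners, and in every pair each peak was the other's nearest. Of the partners, 0 overlapped a combined peak, but the rule nearly fixes this count. Except at 1 narrow region, 50597 bp from the combined list, a partner reaches less than 100 bp beyond its region. Only 3 regions lay within 100 bp of a combined peak. The upper limits, 0.0721% by a floor of 3 counts and 0.0886% by the exact 95% interval, are therefore no measured rate.

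How far these matches stand above the density of peaks around them was read from larger distances. Around the 25737 outside peaks, replicate 2 midpoints were counted in steps of 100 bp up to 2 kb. The first step held 4163 pairs, the second 3095 and the third 2544. The count then fell to 1975 between 300 and 400 bp, about the width of a peak, and between 1 and 2 kb it stayed at 2116 to 2248 per step, with a mean of 2176. The first step thus held 1.91 times that level, or 16.2 pairs per 100 peaks against 8.46. That level counts replicate 2 peaks at the combined list, whereas the first step held 0 of them. With these peaks left out, the level was 1847 and the ratio 2.25, which is the like comparison. Around peaks at the combined list the counts with all replicate 2 peaks were 3454 and 456, a ratio of 7.57. As a group the regions thus outnumbered the pairs met at larger distances. Yet that level was 44.4% of their count in the like comparison, or 52.3% with replicate 2 peaks at the combined list counted. Single regions that recur and single regions that only happen to lie close cannot be told apart with these values.

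**Figure D1:**
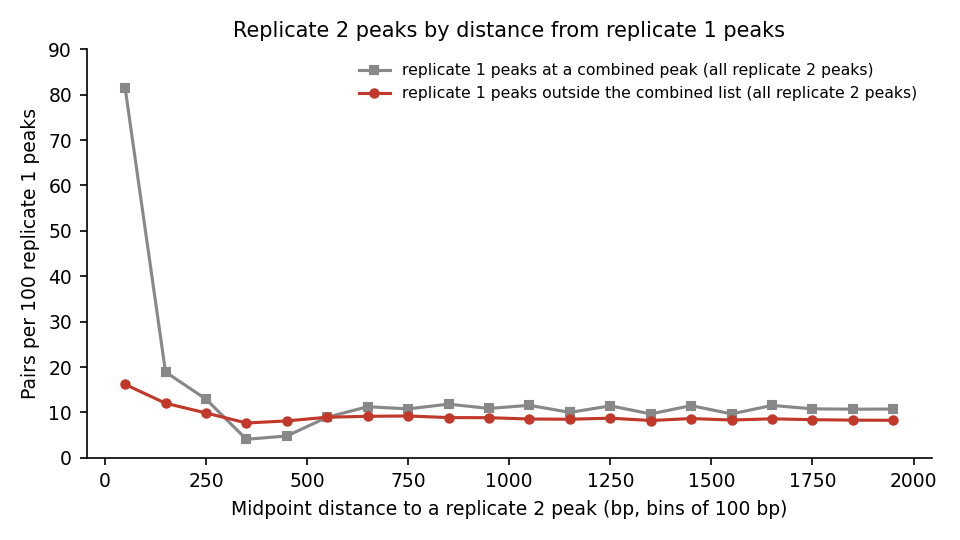
Pairs per 100 replicate 1 peaks (vertical axis) against the distance between midpoints in steps of 100 bp (horizontal axis), for replicate 1 peaks at a combined peak (grey squares) and outside the combined list (red circles). The red line starts at 16.2 and levels off near 8.46, whereas the grey line starts at 81.5. Both lines count all replicate 2 peaks, including those at the combined list.

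Distances between midpoints were limited to 100 bp by the rule, so their values are descriptions only. The median distance between midpoints was 45 bp (binomial 95% interval of the median 43 to 46), against 25.5 bp for matched peaks at the combined list. The median of the regions follows the limit, at 24 bp with a limit of 50 bp and 82 bp with 200 bp. Pairs that only happen to lie close are included in it. In steps of 10 bp the count of pairs went from 514 in the first to 339 in the last step before the limit, and 327 followed just beyond it. At combined peaks the same steps fell from 860 to 145. Replicate 2 midpoints lay at the higher coordinate in 49.9% of pairs, so neither list was shifted against the other. Values on both sides of the limit were alike. The 339 outside peaks whose nearest replicate 2 midpoint lay 90 to 100 bp away had a median score of 0.324, and the 314 at 100 to 110 bp had 0.355. At the other limit, 3 regions lay within 100 bp of a combined peak, the nearest of them 37 bp away. Their median replicate 1 rank was 11669, from too few regions to compare. A further 93 matched peaks overlapped a combined peak by 1 to 100 bp and had a median replicate 1 rank of 1097. Combined peaks vary in width, with 71.1% at the commonest width of 370 bp. Whether these short overlaps lay at an edge is thus not known.

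Median scores of the regions were low in both samples, though fewer regions were low in both at once. The authors' score, whose scale is not given in the sources used here, had a median of 0.320 in replicate 1 where the list runs from 0.0604 to 3.58. In replicate 2 it was 0.467 in a list from 0.0927 to 3.88. Scores tie at the maximum of each list, so the number in a peak's name was read as its rank, 1 being the best. This reading is not stated in the sources. The median rank was 13889 in replicate 1 (95% interval 13532 to 14243) and 13706 in replicate 2 (13239 to 14097). The quartiles were 7583 and 21215 in replicate 1 and 7642 and 21541 in replicate 2. The 21574 outside peaks with no match had a median replicate 1 rank of 17451, and matched peaks at the combined list 1858. The regions stood between these sets, nearer to the unmatched one. The median replicate 1 score of the unmatched outside peaks was 0.220, below that of the regions. Since the rule leaves out peaks at the combined list, it fixes part of the low scores and of the contrast with that list. Both ranks were beyond 5000 in 79.2% of regions and beyond 10000 in 44.1%. Nearly all were of the standard width, 380 bp in replicate 1 and 356 bp in replicate 2, with 1 exception in each list.

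The share of outside peaks with a match declined steadily down the replicate 1 list. It was 30.2% in ranks 1 to 5000 (474 of 1568, exact 95% interval 28.0% to 32.6%), 21.3% in ranks 5001 to 10000 and 17.0% in ranks 10001 to 15000. It went on to 14.0%, 12.9% and, in ranks 25001 to 30000, 11.5% (566 of 4919, 10.6% to 12.4%). The level per 100 bp at 1 to 2 kb changed little over the same classes, from 8.74% to 6.75%, with replicate 2 peaks at the combined list left out. The ratio of the matches to that level was 3.46 in the best class and 1.70 in the lowest. The intervals count peaks only and treat them as independent. Leaving out peaks at the combined list left 1568 peaks in the best class, against 4620 in the next and 4919 in the lowest. The values of the best class thus depend on the rule.

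**Figure D2:**
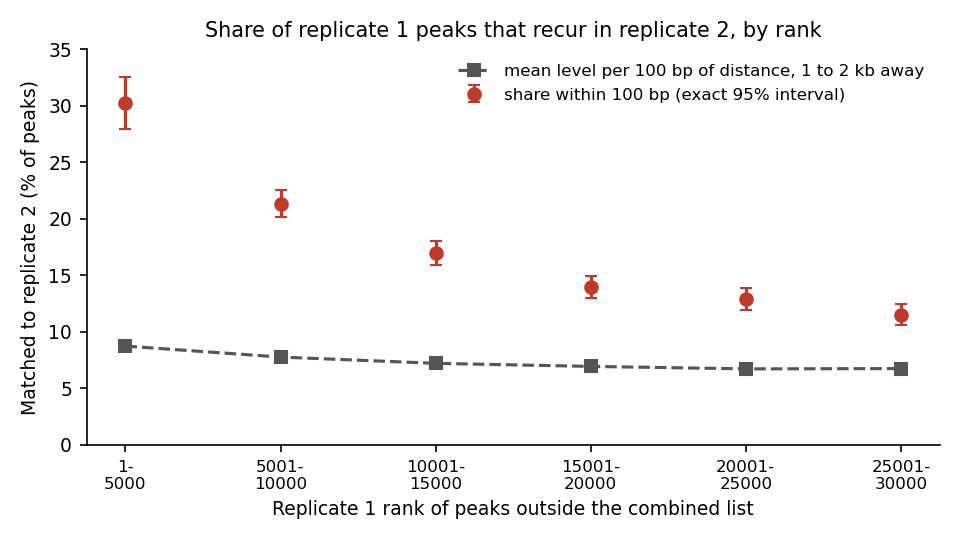
Share of replicate 1 peaks outside the combined list with a replicate 2 midpoint within 100 bp (red circles, exact 95% intervals) by replicate 1 rank, beside the mean level per 100 bp of distance at 1 to 2 kb (grey squares). The share fell from 30.2% to 11.5% while the level moved from 8.74% to 6.75%.

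Ranks in the 2 samples were weakly related. Spearman's rho of the scores was 0.140 across the 4163 regions, and that of the ranks was also 0.140, against 0.690 for the 3448 matched peaks at the combined list. For pairs of outside peaks 1 to 2 kb apart it was 0.0377 (18471 pairs). These are descriptions across regions that share their libraries, and a weak correlation of this kind is no finding on its own. Since IDR keeps peaks that recur at like ranks, the contrast with the combined list may follow from how that list was made. In 40.9% of regions 1 rank was more than 2 times the other. Closeness of midpoints did not go with better ranks. Among the 970 regions within 20 bp the median of the worse rank was 20137 and rho of the ranks 0.101, and among the 718 at over 80 and up to 100 bp they were 19489 and 0.119.

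A comparison by rank in both lists showed where matches stood highest above their surroundings. With both lists divided into classes of 5000 ranks, pairs within 100 bp exceeded the level at 1 to 2 kb in 36 of 36 combinations, by 1.41 to 5.14 times. Where both ranks were within 10000, the ratio was 3.80 or more. Where both were beyond 10000 it was 2.44 or less. With 1 rank within 10000 and the other beyond, it ran from 1.46 to 3.82, so the sets overlap. Of the regions, 618 or 14.8% were within the first 10000 ranks of both lists (exact 95% interval 13.8% to 16.0%), and 404 or 9.70% were beyond rank 20000 in both. In the last class of both lists 91 pairs stood against a level of 64.7.

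**Figure D3:**
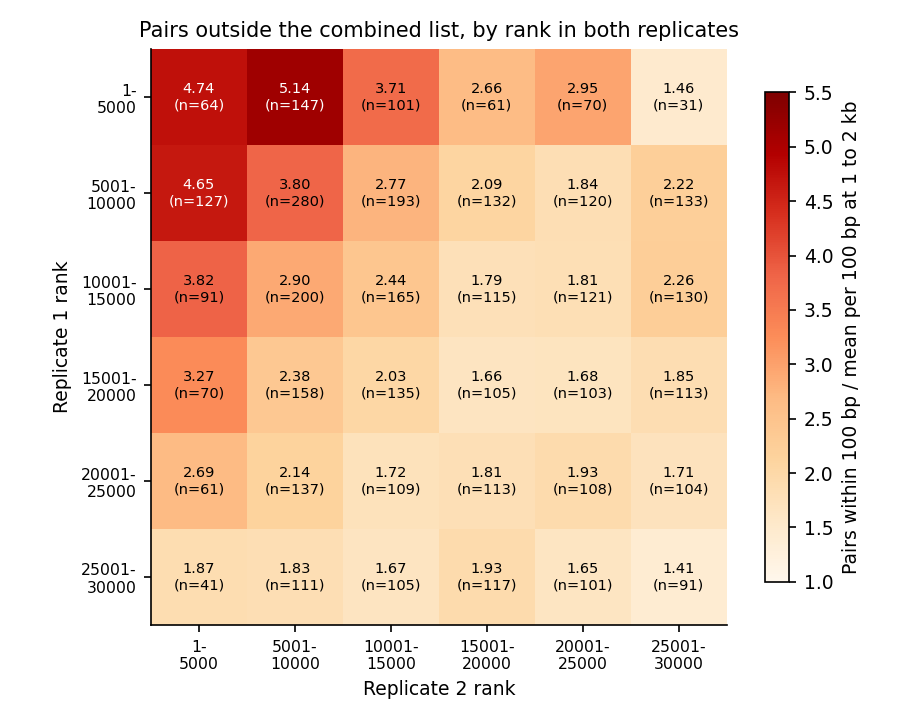
Ratio of pairs within 100 bp to the mean number of pairs per 100 bp at 1 to 2 kb, for peaks outside the combined list, by replicate 1 rank (rows) and replicate 2 rank (columns), with the number of pairs in brackets. Ratios run from 1.41 among the lowest ranks of both lists to 5.14, and all 4 combinations within the first 10000 ranks are 3.80 or higher.

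Matched pairs passed out of the combined list mainly beyond rank 5000. Of 753 matched pairs whose worse rank was within 1000, 4 were outside the list, or 0.531%. The share outside stayed low down to rank 5000, at 1.33%, 1.52%, 4.05% and 7.0% per 1000 ranks. It was 28.1% for a worse rank of 5001 to 5500 (32 of 114, exact 95% interval 20.1% to 37.3%), 39.1% from 5501 to 6000 and 51.1% from 6001 to 7500. It then climbed to 70.5% up to 10000, 89.5% up to 20000 and 95.6% beyond. The threshold that the authors applied is not given in the sources used here, and the rule that chose the regions fixes part of this pattern.

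**Figure D4:**
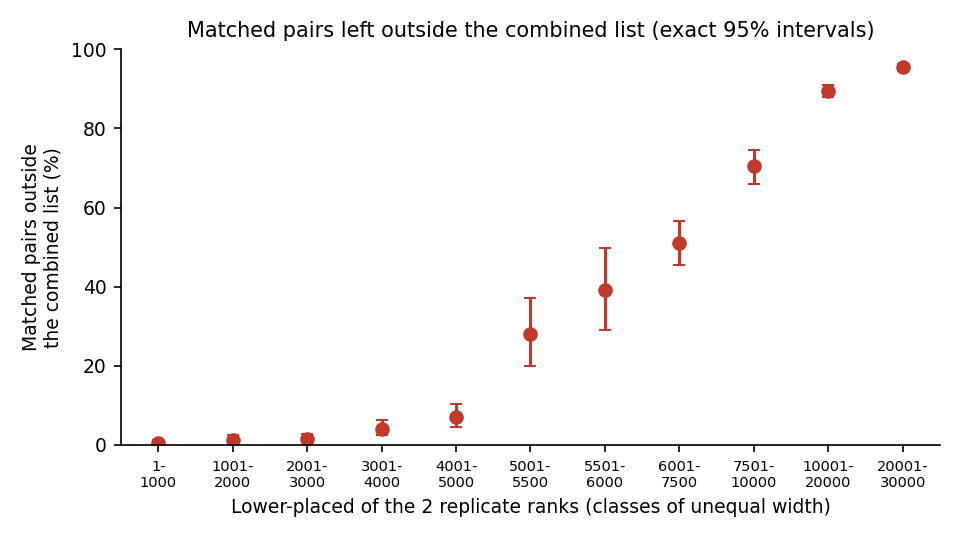
Share of matched pairs that overlap no combined peak (vertical axis, with exact 95% intervals) by the worse of the 2 replicate ranks (horizontal axis, classes of unequal width). The share is at most 7.0% up to rank 5000 and 95.6% beyond rank 20000.

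A small group was not weak in either sample. The 64 regions within the first 5000 ranks of both lists, 1.54% of all, stood among ranks where the combined list kept most matched pairs. The best was X 5429442 to 5429561. It held rank 319 in replicate 1 and 385 in replicate 2, with midpoints 11 bp apart. At 120 bp it was the 1 region of unusual width in replicate 1, and the nearest combined peak lay 50597 bp away. V 9175194 to 9175573 held ranks 566 and 691, with midpoints 15 bp apart and the nearest combined peak 36945 bp away. I 5164808 to 5165187 held ranks 635 and 706. Its replicate 2 peak was 89 bp wide, the 1 exception to the standard width on that side. II 3616625 to 3617004 held ranks 829 and 749 and stood 62696 bp from the combined list. These 4 regions had the maximum score in both lists and ranks within 1000 in both.

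The next regions in this order were X 8545940 to 8546319 with ranks 1077 and 876, III 4720802 to 4721181 with ranks 1132 and 618, and X 7264959 to 7265338 with ranks 1394 and 1124. The one on III had a combined peak 637 bp away, the nearest distance among the 12 best. V 8485088 to 8485467 held ranks 1708 and 1537, and IV 8375404 to 8375783 held 1741 and 1144. I 7251471 to 7251850 held 1787 and 1723. On II, 13083654 to 13084033 held 1247 and 1863, and 11440153 to 11440532 held 1885 and 1218. These 12 regions covered every nuclear chromosome, with 3 each on II and X, 2 each on I and V, and 1 each on III and IV. All 12 had the maximum score in both lists. Over all regions, 16 had it in both, 3 in replicate 1 alone and 192 in replicate 2 alone, where the maximum is shared by 3814 peaks against 1901 in replicate 1.

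The 64 regions with good ranks in both samples had a longer median distance to combined peaks than the rest. Their median distance to the nearest combined peak was 11134 bp (95% interval 7377 to 14902), against 5725 bp (4927 to 6939) for the 554 regions whose worse rank was 5001 to 10000 and 6410 bp (5975 to 6856) for the 3545 beyond. Another replicate 1 peak lay within 1 kb of 34.4% of them (22 of 64, 22.9% to 47.3%), against 56.7% and 54.1% in the other 2 sets. In the central 50% of their chromosome lay 64.1% of them (41 of 64, 51.1% to 75.7%), against 49.3% (45.0% to 53.5%), whose interval overlaps theirs, and 46.6% (44.9% to 48.2%). On X were 15.6% (7.76% to 26.9%), 13.2% and 13.3% of the 3 sets, with intervals that overlap. These sets were formed after their ranks had been seen, and the differences between them were not tested.

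At the other end of the range stood regions barely within the lists. II 4763080 to 4763459 held ranks 29893 and 29699, X 9481950 to 9482329 held 29670 and 29575, and I 3346974 to 3347353 held 29186 and 29390. Their replicate 1 scores were 0.0617, 0.0638 and 0.0671. Other regions were strong in 1 sample alone. X 6740270 to 6740649 stood at rank 2283 in replicate 1 and 29817 in replicate 2. IV 8009154 to 8009533 stood at 29767 and 3136, and III 2483270 to 2483649 at 3060 and 29642. In these 3 pairs the midpoints were 71, 98 and 85 bp apart, and a combined peak lay 1353, 1027 and 836 bp away. With ranks 1 to 5000 in replicate 1 and 25001 to 30000 in replicate 2, 31 pairs stood against a level of 21.2. With these classes exchanged, 41 stood against 21.9, so many such pairs may only happen to lie close.

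Across chromosomes the regions had the same order of density as the combined list, and nearly that of all outside peaks. Chromosome III held 839 regions, 60.9 per Mb of span, and I held 852, 56.6 per Mb. II held 651 (42.6 per Mb), IV 684 (39.2), X 553 (31.2) and V 584 (27.9). The combined list also runs III, I, II, IV, X and V, from 60.9 to 21.4 per Mb. The share of outside peaks that had a match was highest on I, at 18.5% (exact 95% interval 17.4% to 19.6%), and III, at 18.3%. It was lowest on V, at 13.5% (12.5% to 14.6%), and X, at 14.0%. These chromosomes with the highest shares also had more outside peaks per Mb, 306 on I and 332 on III against 206 on V and 223 on X. II and IV had 252 and 255, so only these 2 changed places against the order of the regions. Outside peaks include the regions. Set against the level at 1 to 2 kb on the same chromosome, the matches stood at 2.15 times on III and 2.36 times on I, with II at 2.25, IV at 2.21, V at 2.26 and X at 2.33. The order by this ratio was thus not the order by share, and III had the lowest ratio of the 6.

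**Figure D5:**
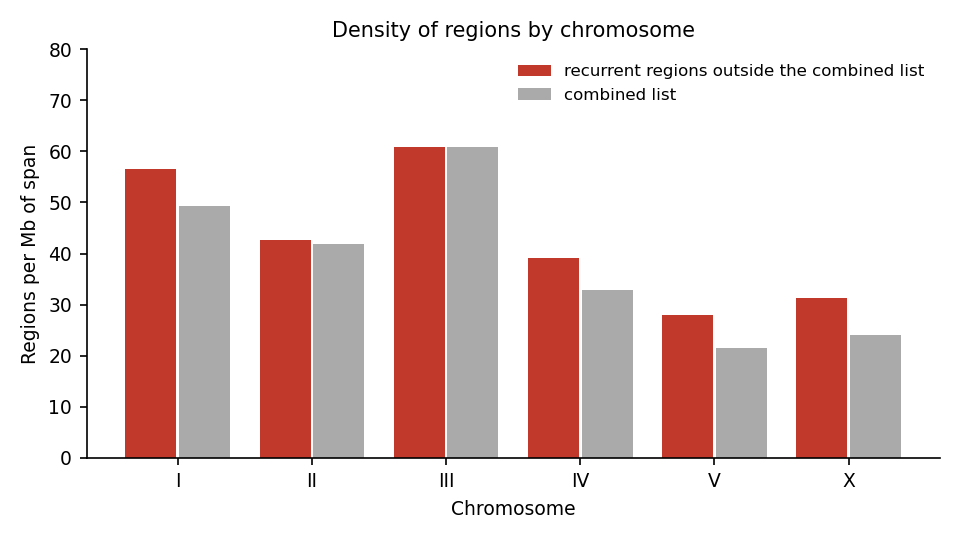
Regions per Mb of chromosome span (vertical axis) for the recurrent regions outside the combined list (red) and the combined list (grey), by chromosome. Both run from 60.9 per Mb on III down to V, with 27.9 and 21.4.

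X held 13.3% of the regions (exact 95% interval 12.3% to 14.4%), between the 11.6% of the combined list (10.6% to 12.7%) and the 15.7% of unmatched outside peaks (15.2% to 16.2%). X makes up 17.7% of the span. In ranks 1 to 5000 of replicate 1 the X shares of regions and unmatched peaks were 12.4% and 12.2%. In ranks 25001 to 30000 they were 14.0% and 16.9%, with intervals of 11.2% to 17.1% and 15.8% to 18.1% that overlap. In each class between these, the share of the regions was also the lower one. It was 14.4% against 15.3% in ranks 5001 to 10000 and 12.2% against 15.5% in ranks 10001 to 15000. These differences were not tested.

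By their share, the regions did not lean to chromosome centres. Set against the level at 1 to 2 kb, matches stood at 2.38 times in the central 50% and 2.15 times outside it. The difference was not tested. In the central 50% of the span lay 47.2% of them (exact 95% interval 45.7% to 48.7%) and 46.9% of the unmatched outside peaks (46.2% to 47.6%). For the combined list the share was 53.0% (51.3% to 54.6%). The share of regions ran from 41.5% on III and 43.4% on IV to 52.3% on I. On V, where 62.9% of combined peaks were central, 47.8% of the regions were (43.7% to 51.9%). On X the regions stood at 49.7% and the combined peaks at 43.9%.

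Regions lay somewhat closer to combined peaks than unmatched peaks did. The median distance to the nearest combined peak was 6380 bp (95% interval 5989 to 6825), against 8501 bp (8333 to 8691) for the 21574 unmatched outside peaks. Within 1 kb of a combined peak lay 12.03% of regions and 8.76% of unmatched peaks, and within 20 kb lay 80.2% and 74.2%. The median was shorter for regions on each of the 6 chromosomes, from 4701 against 5236 bp on III to 10587 against 14186 bp on V. The ratio of matches to the level at 1 to 2 kb was 2.69 within 1 kb of a combined peak, 2.21 from 1 to 5 kb, 2.17 from 5 to 20 kb and 2.26 beyond. Peak density also differs with distance from the combined list, and its part in these values was not tested. The 3 regions farthest from the combined list were all on V. V 3088363 to 3088742 lay 358382 bp away with ranks 12456 and 25112. V 17311912 to 17312291 lay 345993 bp away with ranks 27634 and 21277, and V 3194971 to 3195350 lay 251774 bp away with ranks 19422 and 3808.

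Regions were spread thinly along most of the genome. Of 2008 windows of 50 kb, 21.5% held none, the median was 2, and 103 windows held 6 or more. Another region lay within 1 kb of 10.6% of them (exact 95% interval 9.65% to 11.5%), and another replicate 1 peak of any kind lay within 1 kb of 54.1%, against 47.4% of unmatched outside peaks. The fullest window was III 1800001 to 1850000, with 15 regions among 27 outside peaks of replicate 1 and 5 combined peaks. I 2700001 to 2750000 held 11 regions among 28 outside peaks, and I 11050001 to 11100000 held 11 among 27. A window next to the first, III 1750001 to 1800000, also held 11. Across the windows Spearman's rho between the number of regions and of combined peaks was 0.373, and between regions and all outside peaks of replicate 1, which include them, 0.657. Windows share libraries and differ in peak density, and these values are descriptions.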

How the data were processed

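Peak lists of LSY-2 GFP ChIP replicates 1 and 2 and a combined list were used, grouped by the sample titles. Per the file headers they are in build WS220 and were made with SPP followed by IDR. The authors' score per peak, as deposited, has no stated scale. The aligner, versions, thresholds and any pooling of reads were not given in the sources used here. Replicate lists hold 30000 peaks each, so their length measures no binding, and depth is unknown.

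Midpoints were (start + end)/2, the partner was the nearest replicate 2 midpoint, and mitochondrial peaks were left out. A distance to a combined peak is the difference between facing ends. A chromosome's span runs between the outermost bases of the 3 lists. Shares have exact Clopper-Pearson 95% intervals and medians binomial ones, covering counting of peaks only. No test was run, since 2 samples of 1 group allow none. The rule and comparisons were chosen with earlier results of these data known. Regions were named by best worse rank (12, and the best per chromosome), distance from the combined list, rank difference, lowest ranks in both (3 each) and fullest windows (3). Tools were scipy 1.17.1, numpy 2.4.6 and pandas 2.3.3 under Python 3.11.15, with figures from matplotlib 3.10.9. The search for regions was tested on simulated lists.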

Additional observations from a re-analysis of the deposited data

Results flagged for a closer look

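Mitochondrial peaks were outside the regions by rule. Of the 27 mitochondrial peaks of replicate 1, 12 had a replicate 2 midpoint within 100 bp, and the combined list held 0 mitochondrial peaks. These were signals outside the comparisons above. No level at larger distances was taken for mitochondrial DNA, where the peaks are crowded on a short molecule, so the count does not show that they recur.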

How the results depend on the processing

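Of 65 values recomputed under alternatives, 47 stayed within the interval of the main value or, for counts of regions or windows, within 1.5 times of it, and 18 moved. One-to-one matching, taking the regions from replicate 2, counting spans from base 1 and moving the windows by 25 kb moved none. With midpoints within 50 bp there were 2319 regions, a median offset of 24 bp and 6.94% with another region within 1 kb. Within 200 bp these were 6964, 82 bp and 23.6%. With any overlap of 1 bp they were 10039, 127 bp and 35.2%. The counts and offsets follow from the looser or stricter limits. With any overlap the median ranks were 14319 and 14162, and the cause was not tested. Without regions within 1 kb of a combined peak the median distance to it was 8020 bp, by construction. Within the first 10000 ranks of both lists there were 618 regions with median ranks of 6137 and 6237, 0.971% with another region within 1 kb, rho of the scores of 0.0498 and a central share of 50.8%. For the central share and rho the cause was not tested. The X share moved under none of the 7 alternatives run on it.

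No paired analysis was possible because each pair of numbers joins a ChIP and an input, and inputs were not analysed here. Leaving out a replicate was not possible, since the rule needs both lists. Unknown depth limits the lower ranks to an extent that cannot be given.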

Other observations

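With each chromosome's span divided into 10 equal parts, numbered from the left end and summed over the 6 chromosomes, the regions were fullest in part 2, with 12.5%, and sparsest in parts 6 and 9, with 8.24% and 8.22%. The combined list had 11.9% in part 2, 11.3% in part 6 and 7.36% in part 9. Unmatched outside peaks had 10.3%, 9.06% and 9.99% there. These values were looked at after the others were known, and the differences were not tested.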
